A study of Arabidopsis thaliana with 33 samples.

Results

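In shoots of the Arabidopsis brm mutant, 995 H2A.Z regions were found in both brm replicates with no H2A.Z peak of wild type (WT) on them. They were chosen by merging the peaks of both brm lists, keeping merged regions that held a peak of each list, and dropping every region that a peak of either WT list overlapped by 1 bp or more. Merging gave 18276 brm regions, of which 11147 held a peak of both lists; the 995 brm-only regions were 8.93% of these, and the other 10152 were shared with WT. Peaks of all 6 lists (brm, arp6 and WT, 2 each) merged into 21696 regions. The absence of a WT peak is what chose these regions, so it is a description and not a finding, and a region without a WT peak may still hold H2A.Z below the threshold of the WT lists.

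The series measured H2A.Z by ChIP-seq in brm-1, arp6-1 and WT (2 replicates each, with an input library for each), nucleosomes by MNase-seq in brm-1, arp6-1;brm-1, arp6-1 and WT (2 each), and RNA from nuclei in the same 4 genotypes (3 each). All came from soil-grown shoots at the stage of 4 to 5 leaves, under 16 h of light and 8 h of dark. No treatment was applied, and no H2A.Z list of the arp6;brm double mutant was analysed here. The genome of arp6 was sequenced to list its deletions.

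H2A.Z is a variant of histone H2A that the SWR1 complex places into nucleosomes, mostly at the start of genes and, in plants, also along the bodies of genes that respond to the environment or to development. ARP6 is a subunit of SWR1, and plants without it carry less H2A.Z in chromatin. BRM, or BRAHMA, drives a SWI/SNF complex as its ATPase, and such complexes slide or remove nucleosomes and so change access to genes.

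The targeted genes were checked first in the authors' deposited tables of RNA, which compare each mutant with WT. BRM had a log2 fold change of -5.64 in brm, -8.87 in arp6;brm and -0.01 in arp6, and ARP6 one of 0.27 in brm, -5.60 in arp6;brm and -5.73 in arp6. The brm lists rest on 11034796 and 5553946 tags with 42.51% and 35.3% of tags in peaks, the arp6 lists on 7536706 and 6353934 tags with 6.02% and 5.14% in peaks, and the WT lists on 10302678 and 15765419 tags with 24.26% and 41.83% in peaks. WT replicate 1 was called with other settings than the other 5 lists, a 4-fold excess over input, a 1-fold local excess and a Poisson threshold of 0.001 in place of a 3-fold excess over input, a 4-fold local excess and a false discovery rate (FDR) of 0.01. The count of brm-only regions turns on WT replicate 2, the deepest library: 4073 regions held no peak of WT replicate 1, and 1416 held none of WT replicate 2. Leaf mesophyll markers ran at an average log2 CPM (a depth-scaled read count) of 6.41 to 12.05 in the deposited brm table. Floral and seed markers lay between -4.08 and -2.01 there, with 1 of 5 not listed. Of 6 root markers, 4 were not listed, PRP3 was at -2.94 and BGLU23 at 6.20.

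The brm-only regions were short. Their median width was 787 bp, with quartiles of 662.5 and 956.5 bp and a range of 501 to 3769 bp, against a median of 1203 bp in brm regions shared with WT. Only 21.9% of brm-only regions reached 1000 bp, whereas 69.8% of shared regions did. Width belongs to the peaks that the rule used, and a wider region has more room to touch a WT peak. The difference in width is therefore a description. Together the 995 regions covered 0.893 Mb, or 0.749% of the genome, and the shared regions covered 14.87 Mb. The shortest width that either brm list holds is 501 bp, and 34.4% of the brm replicate 1 peaks and 44.8% of the brm replicate 2 peaks in brm-only regions had just this width. In shared regions these shares were 6.18% and 13.3%. Taken from 1 brm list alone, the regions with no WT peak numbered 2367 without brm replicate 1 and 2758 without brm replicate 2, with median widths of 501 and 626 bp. In 990 regions there was 1 peak of each brm list, and a median of 68.2% of the region's length was covered by both, against 75.2% in shared regions.

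The rule kept the regions off WT peaks, and their distance to the nearest one was measured. The median gap to the nearest WT peak was 2125 bp, and the quartiles were 1107.5 and 3729.5 bp. A WT peak lay within 500 bp of 5.93% of the regions, within 1000 bp of 21.5% and within 10 kb of 97.2%. For the 10938 protein-coding genes that touched no WT peak the median gap was 1547.5 bp, and 93.3% had a WT peak within 10 kb, so a WT peak nearby is not particular to these regions. Gaps were measured from the ends of whole genes and of regions, which were not matched for length. The smallest gaps were 1 bp at chr3:3161022-3161735 (TAIR10), which lies at AT3G10210 and EMB2804, 25 bp at chr5:6260474-6261149 at AT5G18760, and 39 bp at chr1:8701249-8702015 at CYP86C1, a cytochrome P450 gene. On the other side of the rule, the shared regions with the least WT overlap were chr2:18247391-18248522 at MLO15 (10 bp), chr5:20071886-20072796 (19 bp) and chr2:14452700-14453713 at MEE20 (35 bp). Such cases were few, since WT peaks covered a median of 90.6% of a shared region.

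**Figure D1:**
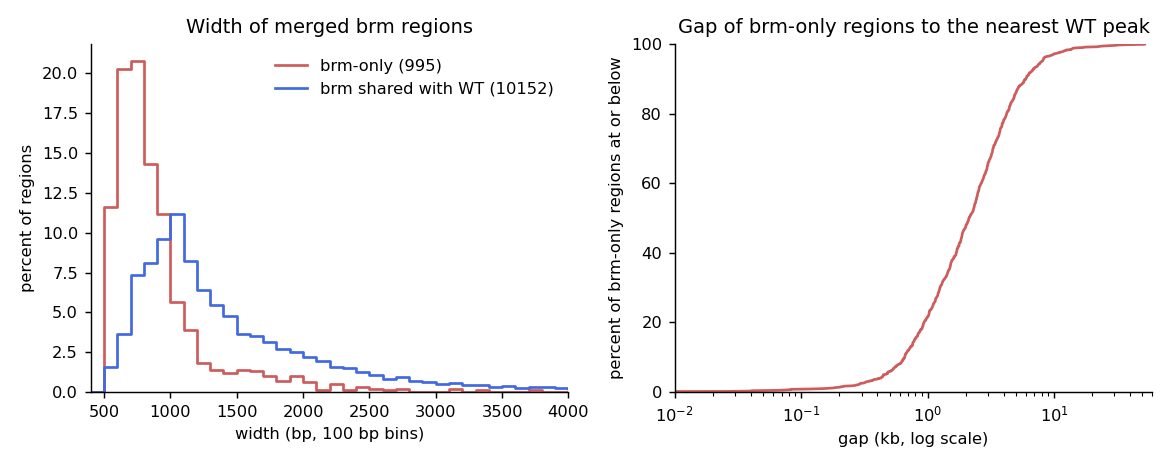
Left, percent of brm-only (red) and shared (blue) merged brm regions in each 100 bp bin of width; the brm-only distribution lies to the left, with medians of 787 and 1203 bp. Right, cumulative percent of the 995 brm-only regions by gap to the nearest WT peak on a log scale, with a median of 2125 bp.

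Brm-only regions were spread over all 5 chromosomes, with 247, 164, 214, 134 and 236 on chromosomes 1 to 5, or 7.21 to 9.12 per Mb. As a share of the brm regions in both lists they ran from 7.85% on chromosome 4 to 9.75% on chromosome 3. In the 18 windows of 1 Mb that hold more pseudogenes than protein-coding genes, there were 34 brm-only regions (1.89 per Mb), against 961 (9.5 per Mb) in the other 103 windows. Shared regions thinned out in the same windows, at 14.0 per Mb against 97.9 per Mb. Neighbouring brm-only regions lay a median of 68.3 kb apart, and 16 of 990 neighbouring pairs were within 2000 bp of each other. No protein-coding gene held more than a pair of them, and those with a pair were AT1G62320, AT3G44060 and ABCA6, an ABC transporter gene (named after their counts were seen).

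Many brm-only regions lay within genes. Of these regions, 49.7% (95% Wilson interval 46.6 to 52.9) lay inside a single protein-coding gene, against 23.2% (22.4 to 24.0) of shared regions. Regions across a gene end made up 37.6% of brm-only and 56.7% of shared regions, and regions that held a whole gene made up 3.52% and 15.6%. No protein-coding gene was touched by 9.15% (7.51 to 11.1) of brm-only and 4.52% (4.13 to 4.94) of shared regions. The shares differed with width. Among regions under 600 bp, 67.0% of brm-only and 66.2% of shared regions lay inside a gene, while among regions of 600 to under 1000 bp the shares were 52.6% and 39.3%, and among wider ones 32.1% and 15.6%. These intervals cover counting error alone, and regions of the same libraries are not replicates.

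The 995 regions overlapped 975 protein-coding genes, whose median length was 2466 bp, against 2099 bp for genes at shared regions and 2078 bp for all 27444 protein-coding genes. Overlap by 1 bp favours long genes wherever regions lie, so these medians are not a matched comparison. A WT peak lay elsewhere on 17.1% of the 975 genes, while 60.1% of all protein-coding genes touched a WT peak; the rule removes genes whose WT peaks lie where brm has its own. The centre of a brm-only region inside a gene lay a median of 21.2% of the gene's length from the nearer end, against 28.7% in shared regions. These values are not matched for width, and a wider region inside a gene must have its centre further from both ends. Median widths were 756 and 963 bp, in genes with median lengths of 2636 and 2561 bp. Which end is the start could not be told from the gene table used, which gives no strand. A pseudogene was overlapped by 0.503% of brm-only and 1.90% of shared regions, and 50 brm-only regions overlapped no annotated gene of any kind. Overlapped microRNA genes were MIR166a, whose microRNA acts on class III HD-ZIP transcription factors of leaf polarity, MIR395a, whose microRNA acts in sulfate assimilation, and MIR850 and MIR420 (named after their count was seen). None of these 4 was listed in the deposited brm table of RNA.

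Among all 995 regions, the fifth widest was at BRM itself. The region chr2:18929056-18931794, of 2739 bp, lies wholly inside BRM and is the only merged brm region on the gene. The peak was 2739 bp wide in brm replicate 1 and 948 bp wide in brm replicate 2, against no peak anywhere on BRM in either arp6 list or either WT list. The gap to the nearest WT peak was 5165 bp, more than the median of the members. BRM RNA fell in brm, to a log2 fold change of -5.64, at adjusted p = 4.2e-94 in the authors' deposited table. The mutation of the brm line is in this gene, and its part in the peak was not tested.

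The other 4 of the 5 widest regions lay across gene ends or around a gene. The widest, chr3:22109043-22112811 with 3769 bp, held the whole of AT3G59850 and had a WT peak 120 bp away. The second, chr5:18030491-18033871 with 3381 bp, lay at AT5G44690 and GSO2, which encodes a receptor kinase of the embryo and root. Its peak was 950 bp wide in brm replicate 1 and 3370 bp wide in brm replicate 2, with 939 bp in both. The third, chr2:594592-597731 with 3140 bp, lay at PP2-B2, which encodes a phloem protein 2, with peaks of 3098 bp in brm replicate 1 and 2624 bp in brm replicate 2. The fourth, chr5:5355509-5358628 with 3120 bp, lay at AT5G16360 and AAE5, an acyl-activating enzyme gene. Each of these 4 also held a peak of 1 arp6 list.

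Peaks of the arp6 lists lay on smaller shares of brm-only than of shared regions. The rule did not use the arp6 lists, but it bears on this: 78.9% of arp6 replicate 1 peaks and 62.9% of arp6 replicate 2 peaks touched a WT peak, and the rule keeps brm-only regions clear of WT peaks. The shares are therefore a description. An arp6 replicate 1 peak overlapped 54 of 995 brm-only regions (5.43%, Wilson interval 4.18 to 7.01) and an arp6 replicate 2 peak overlapped 59 (5.93%, 4.62 to 7.57), against 21.8% and 19.9% of shared regions. A peak of either arp6 list lay on 104 brm-only regions (10.5%), against 33.2% of shared regions. Peaks of both arp6 lists lay on 9 brm-only regions (0.905%, 0.477 to 1.71), against 8.5% (7.97 to 9.06) of shared regions. The shares lay closer in the narrower regions. Below 600 bp the share with either arp6 list was 5.22% (2.41 to 10.9) in brm-only and 7.01% (3.96 to 12.1) in shared regions, and the intervals overlapped widely. It was 8.16% (6.31 to 10.5) against 11.7% (10.6 to 13.0) at 600 to under 1000 bp, and 20.2% (15.4 to 26.0) against 42.6% (41.5 to 43.8) at 1000 bp and over, where the shares lay about as far apart as over all widths. That widest class is not matched within itself, since the 90th percentile of width over all regions was 1337.6 bp for brm-only and 2468.9 bp for shared regions.

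Seen from the arp6 lists, brm-only regions took 1.66% of the 3304 peaks of arp6 replicate 1 and 1.48% of the 3997 peaks of arp6 replicate 2. Of arp6 peaks outside every WT peak, 7.46% of 697 in replicate 1 and 3.78% of 1481 in replicate 2 lay on brm-only regions. The widest brm-only regions with peaks of both arp6 lists were chr3:21602494-21604797 (2304 bp) at AT3G58400, chr5:155661-157668 (2008 bp) at AT5G01380, chr5:3347187-3348888 (1702 bp) at AT5G10580, chr3:17385215-17386765 (1551 bp) at AT3G47210 and chr5:6901072-6902174 (1103 bp) at CHR42, a gene of the SNF2 family. At CHR42 the peaks were 662 and 1008 bp wide in the brm lists and 501 and 630 bp wide in the arp6 lists, with none in either WT list at the region. Deletions of the arp6 genome overlapped 7 brm-only regions (0.704%) and 190 shared regions (1.87%).

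**Figure D2:**
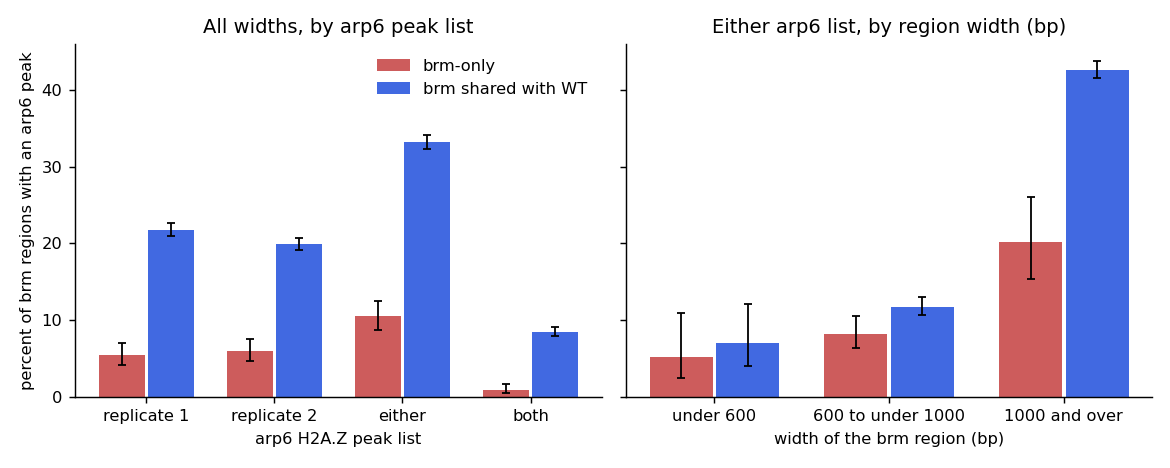
Percent of brm-only (red) and shared (blue) brm regions overlapped by an arp6 H2A.Z peak, by arp6 list (left) and by region width for either list (right); error bars are 95% Wilson intervals of counting error. The overall shares of 10.5% and 33.2% come closer below 600 bp, at 5.22% and 7.01%.

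Nucleosome occupancy at brm-only regions was higher in brm than in WT, as it was over all positions. The authors' deposited nucleosome tables hold 1 pooled data set per genotype, list each position's occupancy signal in the mutant and in WT, and share the WT data. There, 5362 positions of the brm data centred in brm-only regions had a median signal of 198 in brm and 176 in WT. Their median log2 fold change was 0.14 (95% order-statistic interval 0.12 to 0.15), against 0.17 (0.16 to 0.17) at shared regions and 0.087 over all 702244 nuclear positions. The change at brm-only regions was therefore above that of all positions and below that of shared regions. In the arp6;brm table the medians were 0.12 at brm-only regions, 0.13 at shared regions and 0.08 over all positions, and in the arp6 table they were 0.037, 0.075 and 0.023. The intervals of brm-only and shared regions did not overlap in the brm table (0.12 to 0.15 and 0.16 to 0.17) or in the arp6 table (0.020 to 0.051 and 0.072 to 0.079), and met in the arp6;brm table (0.10 to 0.13 and 0.13 to 0.14). Within width classes of the brm table the intervals overlapped or met. The medians were 0.10 (0.05 to 0.18) for brm-only and 0.16 (0.11 to 0.22) for shared regions under 600 bp, 0.13 (0.11 to 0.15) and 0.15 (0.14 to 0.16) at 600 to under 1000 bp, and 0.15 (0.13 to 0.17) and 0.17 (0.17 to 0.18) at 1000 bp and over. In the arp6;brm table the intervals overlapped in every width class. In the arp6 table they overlapped in the classes below 1000 bp. At 1000 bp and over they stayed apart, at 0.042 (0.014 to 0.071) for brm-only and 0.080 (0.076 to 0.084) for shared regions. The size of the change depended on the deposited column: read at the summit instead of the point, the medians at brm-only regions were 0.27 in brm, 0.24 in arp6;brm and 0.17 in arp6, against 0.21, 0.21 and 0.15 over all positions. Positions of a pooled data set are not replicates, so these intervals say nothing of how another pair of plants would vary.

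Single positions rarely passed the authors' test. At an FDR under 0.05 and a log2 fold change of 1 or more in size, 201 of 5362 positions at brm-only regions were called in brm (3.75%, Wilson interval 3.27 to 4.29), against 4.29% at shared regions and a background of 4.2% over all positions. The share at brm-only regions was thus near the background. Higher calls were 142 (2.65%, background 2.32%) and lower calls 59 (1.1%, background 1.88%). For arp6;brm, 191 of 5364 positions were called (3.56%, background 4.77%), of which 109 were higher (2.03%, background 1.88%) and 82 lower (1.53%, background 2.88%). For arp6, 120 of 5357 were called (2.24%, background 5.24%), of which 28 were higher (0.523%, background 1.05%) and 92 lower (1.72%, background 4.2%). Leaving out positions in arp6 deletions, the arp6 share was 1.93% at brm-only regions and 3.17% of the remaining 678479 positions. Lower calls at brm-only regions were then 75 (1.4%) in arp6 and 75 (1.4%) in arp6;brm. The backgrounds given above for arp6 and arp6;brm include positions in arp6 deletions, so lower calls are not matched to them. Whether arp6;brm carries the same deletions was not tested.

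Fuzziness, the spread of nucleosome positions between cells, and the movement of summits were compared in the same way. Median fuzziness at brm-only regions was 56.18 in brm and 56.78 in WT, and 10.5% of positions had a fuzziness FDR under 0.05, against a background of 8.88%. Lower fuzziness was called at 7.24% (background 5.53%) and higher fuzziness at 3.30% (background 3.36%). Summits had moved by 50 bp or more at 13.2% of the positions, against a background of 15.1% and 12.2% at shared regions. For arp6;brm, fuzziness was called at 11.1% of the positions (background 9.29%), lower at 7.27% (background 5.55%) and higher at 3.78% (background 3.74%), and 13.2% of summits had moved (background 14.9%). For arp6, it was called at 9.37% (background 8.7%), lower at 5.26% (background 4.83%) and higher at 4.11% (background 3.87%), and 13.4% of summits had moved (background 15.5%). At shared regions fuzziness was called at 11.6% of positions in brm, 11.6% in arp6;brm and 9.69% in arp6. Lower fuzziness was called there at 8.37%, 7.7% and 5.78%. The excess over background was thus not particular to brm-only regions. The number of positions per kb was 6.01 at brm-only regions, 5.95 at shared regions and 5.89 over the nuclear genome.

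The region medians spread on both sides of 0. Of 983 brm-only regions with 3 or more positions in the brm table, 708 (72.0%) had a median log2 fold change above 0, against 80.8% of shared regions. The lowest region median was -1.0, the 10th percentile was -0.18, the middle one 0.14, the 90th percentile 0.43 and the highest 0.88. For arp6;brm, 68.7% of brm-only and 75.3% of shared regions were above 0, and for arp6, 56.8% and 64.8%. The lowest brm-only region median was -7.34 in arp6;brm and -7.34 in arp6. At least 1 position was called in 181 brm-only regions (18.2%) in brm, against 30.5% of shared regions, which are wider and hold more positions. Regions inside 1 gene, across a gene end and with no protein-coding gene had medians of 0.15, 0.13 and 0.14 in the brm table.

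In regions of 600 to under 1000 bp, the WT signal dipped at the centre. WT medians were 164 to 170 within 200 bp of the centre of the 662 brm-only regions and 186 to 196 beyond 1000 bp, whereas brm medians were 188 to 198 at the centre and 194 to 212 beyond 1000 bp. The median log2 fold change was accordingly 0.16 to 0.19 within 200 bp of the centre and 0.048 to 0.14 beyond 1000 bp. At the centre the values were 0.13 to 0.16 for arp6;brm and 0.00 to 0.057 for arp6. Shared regions of that width had the same form, with WT medians of 164 to 172 and brm medians of 184 to 194 within 200 bp of the centre and a log2 fold change of 0.16 to 0.18.

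**Figure D3:**
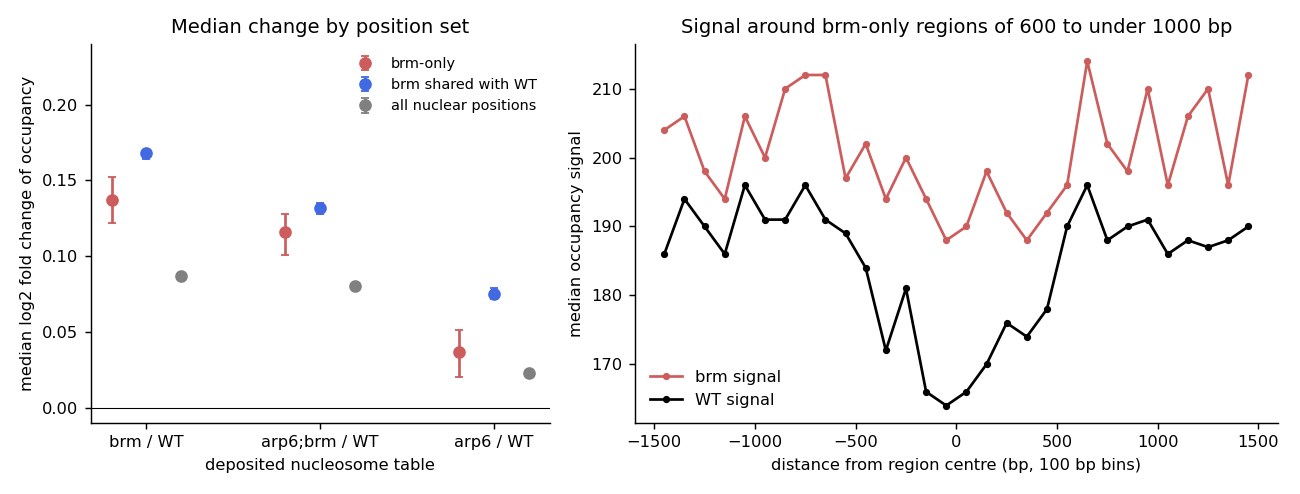
Left, median log2 fold change of nucleosome occupancy in the brm, arp6;brm and arp6 tables for positions in brm-only regions (red), in shared regions (blue) and over all nuclear positions (grey), with 95% order-statistic intervals over positions; brm-only medians of 0.14, 0.12 and 0.037 lie between the other sets. Right, median signal in brm (red) and WT (black) by distance from the centre of the 662 brm-only regions of 600 to under 1000 bp, where the WT signal dips to 164 and the brm signal to 188.

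The 5 highest region medians in brm came from regions of 574 to 935 bp. At chr2:14055436-14056009 in AT2G33160 the median was 0.88 over 3 positions, with median signals of 290 in brm and 184 in WT. At chr5:20016222-20016885 across an end of BXL1, a beta-xylosidase gene of the cell wall, it was 0.86, with 238 in brm and 128 in WT. At chr5:18950966-18951550 in TRN2, which encodes a tetraspanin of leaf patterning, it was 0.77, with 246 in brm and 164 in WT. Across an end of AT1G62270 it was 0.76, and in AT3G42800 it was 0.75 with 1 of 5 positions called. None of the positions in the other 4 of these regions was called in brm. The region in TRN2 also held an arp6 replicate 1 peak of 501 bp.

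The lowest region medians were at AT1G75945 (-1.0), AT3G13437 (-0.74), AT2G45670 (-0.60), MTO1 (-0.58) and AT5G20890 (-0.54), with no position called in brm in any of them. MTO1 encodes cystathionine gamma-synthase, the first enzyme that commits to methionine. Its region, chr3:41292-42066, had median signals of 54 in brm and 104 in WT, with peaks of 775 and 670 bp in the brm lists. In the arp6;brm table the MTO1 region had a median of -0.94 with 1 of 5 positions called, and in the arp6 table a median of -0.061. MTO1 RNA had a log2 fold change of -0.54 in brm in the authors' deposited table, with an adjusted p of 0.0483.

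The BRM region held 18 positions in the brm table, of which 13 had a log2 fold change above 0, and its median was 0.30 with signals of 234 in brm and 180 in WT. Of the 18 positions, 3 were called. In the authors' deposited table, the position 637 bp into the region had a signal of 306 in brm and 136 in WT, a log2 fold change of 1.17 with an FDR of 0.0133. The position at 2387 bp had 52 in brm and 146 in WT in the authors' deposited table, a log2 fold change of -1.49 with an FDR of 0.0289. Next to it, the position at 2487 bp had 242 in brm and 72 in WT in the authors' deposited table, a log2 fold change of 1.75 with an FDR of 0.00426. High and low signal thus stood side by side near 1 end of the region. The arp6 data list a position at 2422 bp, between these neighbours. Whether the positions at 2387 and 2487 bp are separate nucleosomes was not tested. For arp6;brm, the authors' deposited table gave the position at 2387 bp signals of 64 in arp6;brm and 146 in WT with an FDR of 0.0772, and the position at 2497 bp 282 in arp6;brm and 80 in WT with an FDR of 0.0182. For arp6, no position of 14 was called in the authors' deposited table, and the log2 fold changes ran from -0.60 to 0.59.

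**Figure D4:**
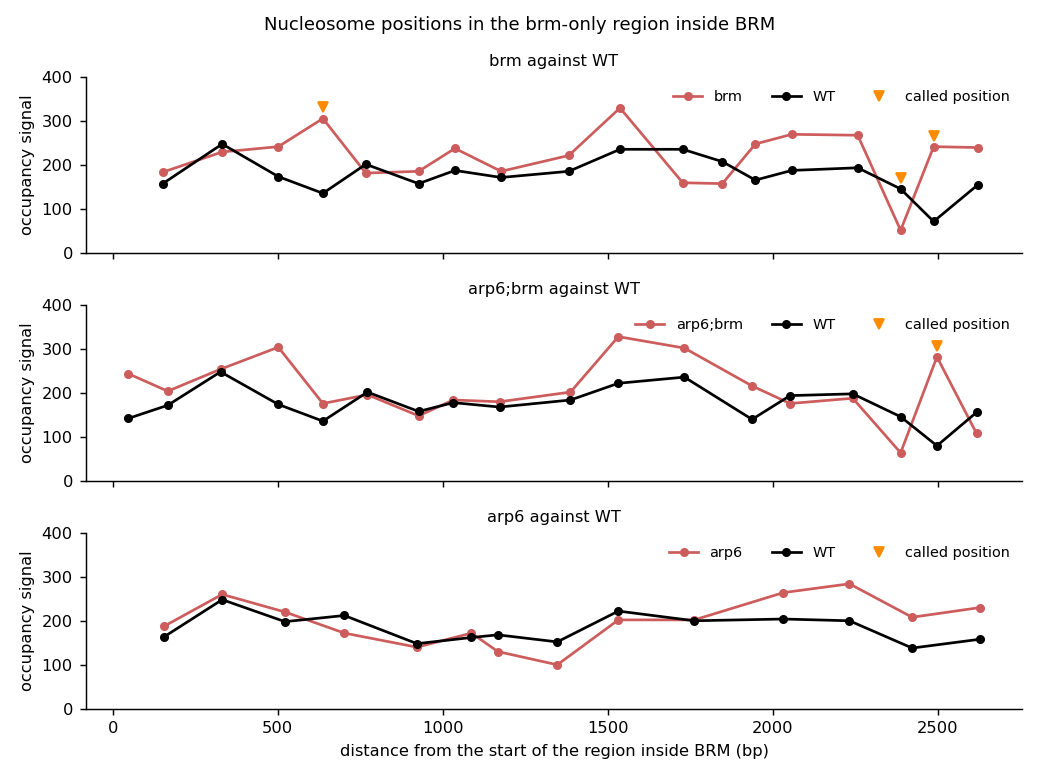
Occupancy signal at each nucleosome position of the 2739 bp region inside BRM for brm, arp6;brm and arp6 (red, top to bottom) and WT (black), against distance from the region's start in bp; triangles mark called positions. In brm and arp6;brm the signal near 2387 bp was 52 and 64, and the next position had 242 and 282.

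The share of genes at brm-only regions whose RNA changed in brm was near that of all genes. The regions overlapped 1074 annotated genes, of which 836 were listed in the deposited brm table, and 111 of these (13.3%, Wilson interval 11.1 to 15.7) had an adjusted p under 0.05, against a background of 13.8% of 21925 genes and 11.8% of genes at shared regions. Of these 57 rose (6.82%, background 7.62%) and 54 fell (6.46%, background 6.14%), and the median log2 fold change was -0.025, against -0.13 for genes at shared regions and -0.018 for all genes. For arp6;brm, 113 of 846 were called (13.4%, background 13.3%), with 39 higher (4.61%, background 6.16%) and 74 lower (8.75%, background 7.14%). Genes at shared regions had 767 higher (8.07%) and 517 lower (5.44%) calls in that table. For arp6, 40 of 841 were called (4.76%, background 6.03%), with 22 higher (2.62%, background 3.01%) and 18 lower (2.14%, background 3.02%). The 3 comparisons share the WT libraries, and in whole shoots fewer cells of a type and less RNA per cell cannot be told apart. The median of the average log2 CPM in the brm table was 2.33 for genes at brm-only regions, against 1.31 at shared regions and 1.96 for all genes. CPM is not scaled by gene length, and these medians were not matched for it.

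Genes with no WT peak anywhere made up 901 of the 1074. Of the 694 listed in brm, 13.1% were called, against 14.1% of the 142 listed genes that also held a WT peak elsewhere. Their levels differed, with a median log2 CPM of 2.53 and 0.57, again not matched for gene length. The regions at the 57 genes that rose had a median of 0.017 in the region's brm occupancy log2 fold change, 33 of 57 being above 0, and those at the 54 genes that fell had 0.17, 43 of 54 being above 0. Regions at the 725 listed genes that were not called had 0.15. Of all brm-only regions with 3 or more positions, 72.0% were above 0. A link between occupancy and RNA was not tested.

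The largest rises in brm, among genes at an average log2 CPM of at least 1, were of MYB15, AOC1 and SEN1. MYB15, a transcription factor of defence and cold responses, had a log2 fold change of 4.16 in brm in the authors' deposited table, with an adjusted p of 3.54e-07, against -3.04 in arp6;brm (adjusted p 0.116) and 0.27 in arp6 (adjusted p 0.957). Its region, chr3:8309899-8310587, held peaks of 634 and 501 bp in the brm lists, and its median occupancy log2 fold change in brm was 0.58. AOC1, an allene oxide cyclase of jasmonate synthesis, had 3.91 in brm with an adjusted p of 3.05e-35 in the authors' deposited table, against 0.41 in arp6;brm (adjusted p 0.275) and -0.06 in arp6 (adjusted p 0.966). AOC1 has close tandem copies, between which reads can be split. SEN1, a gene of senescence and darkness, had 3.23 in brm (adjusted p 2.46e-11), -0.77 in arp6;brm (adjusted p 0.0433) and 1.21 in arp6 (adjusted p 0.00445) in the authors' deposited table. ASN1, a dark-induced asparagine synthetase, rose by 2.59 in brm (adjusted p 0.000122) and fell by 3.05 in arp6;brm (adjusted p 0.000433) in the authors' deposited table. Whether the effects of brm and arp6;brm differ was not tested, since the deposited tables hold no such comparison.

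XTH24, a xyloglucan-modifying enzyme of the cell wall, had 2.55 in brm, 0.51 in arp6;brm and 0.80 in arp6 in the authors' deposited table, and its region was the widest among the 10 largest rises at 1381 bp. The XTH24 region also held an arp6 replicate 1 peak of 501 bp. UGT73B5, a glycosyltransferase of the pathogen response, had 1.96 in brm with an adjusted p of 0.000208 in the authors' deposited table. Its neighbour UGT73B4, a near copy on the same region, had -0.45 with an adjusted p of 0.954 in the authors' deposited table, and reads may be split between them. That region also held peaks of both arp6 lists, each 501 bp wide. The remaining rises were AT1G35710, AT2G18690, AT5G19230 and AT3G24420, with 2.38 to 2.77 in brm in the authors' deposited table. An arp6 replicate 1 peak of 1100 bp overlapped the AT2G18690 region. Of the 10, 4 held a WT peak elsewhere on the gene (AT1G35710, ASN1, AT3G24420 and UGT73B5).

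The largest falls after BRM were of AGL24, AT4G02850 and TLL1. AGL24, a MADS-box promoter of flowering, had -2.50 in brm (adjusted p 2.94e-05), -3.15 in arp6;brm (adjusted p 1.76e-08) and -0.37 in arp6 (adjusted p 0.611) in the authors' deposited table. Its region, chr4:12671020-12671735, held brm peaks of 501 bp in both lists that shared 286 bp, and AGL24 also held a WT peak elsewhere. An arp6 replicate 1 peak of 501 bp lay on the AGL24 region too. TLL1, a lipase-like gene, had -2.09 in brm, -2.56 in arp6;brm and -1.76 in arp6, all at adjusted p values of 1.55e-11 or less in the authors' deposited table. SPL11, an SBP-box factor of shoot maturation, had -2.03 in brm (adjusted p 0.00993) and 0.00 in arp6 in the authors' deposited table. JAL33, a jacalin-related lectin, had -1.93 in brm, -2.15 in arp6;brm and 0.21 in arp6 in the authors' deposited table. GLK2, a transcription factor of chloroplast development, had -1.77 in brm (adjusted p 1.97e-06), -0.47 in arp6;brm (adjusted p 0.087) and -1.75 in arp6 (adjusted p 1.79e-09) in the authors' deposited table, and its region had a median occupancy log2 fold change of -0.42 in brm. AT2G41640 had -1.97 in brm and 1.06 in arp6, and AT1G66090 had -1.79 in brm and 1.55 in arp6, in the authors' deposited table, each at an adjusted p of 0.00226 or less. AT4G02850 and AT5G43870 had -2.15 and -1.77 in brm in the authors' deposited table.

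**Figure D5:**
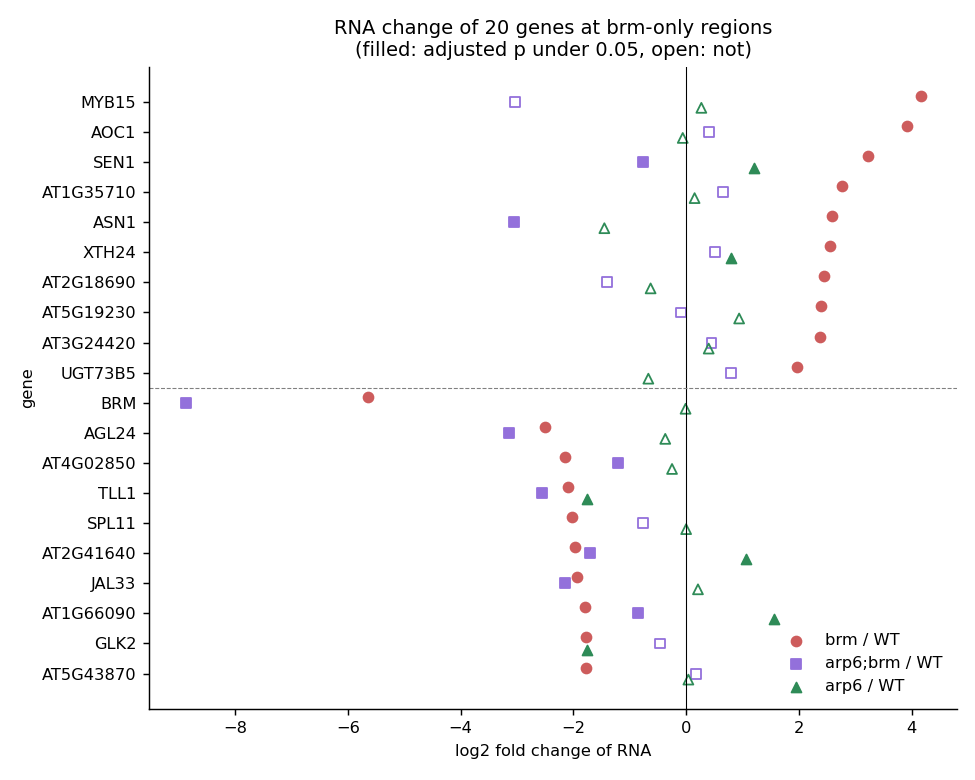
Log2 fold change of RNA in brm (circles), arp6;brm (squares) and arp6 (triangles) against WT, from the authors' deposited tables, for the 10 largest rises (above the dashed line) and 10 largest falls in brm among genes at brm-only regions; filled symbols have an adjusted p under 0.05. MYB15 is highest in brm at 4.16, and BRM lowest at -5.64.

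Genes of 6 lists of developmental, stress and chromatin genes, chosen with earlier results of these data known, were looked up at brm-only regions, which touched 3.55% of all protein-coding genes. Of 16 flowering-time genes 1 carried such a region (AGL24), of 25 stress and hormone genes 1 did (PDF1.2), and of 15 matched chromatin genes a pair did (BRM and EMF2). None of 15 floral organ identity genes, 10 seed programme genes or 9 shoot meristem genes did, while shared brm regions, which touched 42.0% of all protein-coding genes, were at 4, 8 and 7 of these. Shared regions were at 5 flowering-time, 13 stress and hormone and 7 chromatin genes. With so few genes in each list, the counts at brm-only regions set no list apart from all genes. PDF1.2, a plant defensin of the jasmonate and ethylene response, had 5.00 in brm with an adjusted p of 0.00112 in the authors' deposited table, at an average log2 CPM of -0.41, and its region had a median occupancy log2 fold change of 0.55. EMF2, a subunit of the Polycomb complex PRC2, had 0.39 with an adjusted p of 0.528 in that authors' deposited table. Over the whole stress and hormone list, of which PDF1.2 alone lay at a brm-only region, 14 of 25 genes rose (background 7.62%) and none fell (background 6.14%) in brm, with a median log2 fold change of 1.88, against -0.018 over all genes tested. Because earlier results were known when this list was chosen, its excess is a description and says nothing of the brm-only regions. Of the 16 flowering-time genes, 1 rose and 2 fell, with a median of 0.46, and counts this small are not set apart from the same backgrounds.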

How the data were processed

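H2A.Z ChIP-seq peaks, MNase-seq nucleosome tables, RNA-seq tables and a list of arp6 deletions were used. Per the file headers, peaks were called by HOMER per replicate, and the deposited lists hold intervals with tag totals and no score that was used here. The submitters' processing notes name Bowtie2, SAMtools, HOMER, TopHat2, HTSeq, edgeR and BWA, with the TAIR10 build, without their roles. The authors' deposited nucleosome tables hold pooled occupancy signal, fuzziness score, log2 fold change and FDR-adjusted p-value per position; their RNA tables hold log2 fold change, average log2 CPM and adjusted p-value per gene. How signals were scaled is not given in the sources used here.

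Intervals were merged and compared in Python 3.11.15 with pandas 2.3.3 and numpy 2.4.6, with an overlap of 1 bp or more; the overlap code was tested on simulated data. A position belonged to a region that held its centre, and a gene to any region that overlapped it. Genes came from RefSeq (TAIR10.1), by symbol for lists and locus tag for RNA (99.8% of tags matched); SWI3D and SWC6 were not matched. As a check that gene positions fit the files, 114 genes wholly inside arp6 deletions had a median arp6 RNA log2 fold change of -2.91, against -0.02 for all genes. Positions on organelle genomes were left out. Positions were called at an FDR under 0.05 and a log2 fold change of 1 or more in size, genes at an adjusted p under 0.05. No test was run beyond the authors' own: Wilson intervals and order-statistic intervals of medians (SciPy 1.17.1) cover counting error alone. Named regions were the 5 widest, the 5 highest and 5 lowest in brm occupancy, the 5 widest with both arp6 lists and those nearest the WT threshold; named genes were the 10 largest rises and falls whose average log2 CPM was 1 or more, and list genes on a region. The members and lists were chosen with earlier results of these data known.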

Additional observations from a re-analysis of the deposited data

How the results depend on the processing

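Of 79 values recomputed under other settings, 52 stayed within the interval of the reported value (for the number of regions, within 1.5 times of it), 27 moved, and none of the median fold changes changed sign. With 1 replicate left out in turn, the number of brm-only regions ranged from 1416 to 4073 (995 reported), the median width from 501 to 933 bp, the percent with an arp6 peak from 5.43 to 16.5, and the median log2 fold change of occupancy from 0.141 to 0.156 in brm, from 0.121 to 0.123 in arp6;brm and from 0.037 to 0.061 in arp6. The lowest number came without WT replicate 1 and the highest without WT replicate 2, and the lowest width without brm replicate 1. Regions of at least 600 bp had a median width of 818 bp. An arp6 peak with most of its length inside (at least 50%) lay on 8.54% of regions.

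With summit values, medians were 0.269, 0.239 and 0.172 in brm, arp6;brm and arp6, against 0.214, 0.209 and 0.155 over all positions, and with positions at or above the median summit signal they were 0.198, 0.154 and 0.094, against 0.113, 0.108 and 0.063. Called positions in brm were 0.709% at an FDR under 0.01 (background 1.03%) and 5.32% with no minimum fold change (background 5.81%). Called genes in brm were 9.57% at an adjusted p under 0.01 (background 8.6%), 8.13% at a log2 fold change of 1 or more in size (background 7.73%) and 17.4% at an average log2 CPM of at least 1 (background 19.5%). The cause of these moves was not tested, apart from stricter rules calling fewer. Gene ends within 500 bp (11.9%) and protein-coding genes alone (13.5%) were added after seeing the data; the planned setting on gene starts was not run, because the gene table gives no strand. No paired analysis was possible because the results come from peak lists and from tables in which the replicates are already combined.

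Limits: each genotype has 2 H2A.Z lists of unequal depth and settings, so a region without a WT peak is not shown to lack H2A.Z in WT. Nucleosome data were pooled, so no spread between replicates can be given. RNA values per sample were not used.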

Other observations

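The reverse set was smaller. Of the 11147 brm regions in both lists 8.93% touched no WT peak, whereas of 8158 WT regions in both WT lists 268 (3.29%) touched no brm peak. These shares are not matched and measure no net gain or loss. WT replicate 1 holds 9871 peaks called with other settings, against 15639 and 14300 peaks in the brm lists. Of the 7129 brm regions found in 1 brm list alone, 2987 (41.9%) touched no WT peak.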
